A study of Oryza sativa with 12 samples.

Results

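*OsSRO1c* (LOC_Os03g12820, on chromosome 3 by its locus number) was measured in rice shoots by a single microarray probe, CUST_997_Rice4x44kGene, 1 of 42477 probes on the array and 1 of the 37144 that were tested. The study's list of changed genes pairs the probe with this locus, whereas its primer list gives *OsSRO1c* a different locus, the same that it gives for *OsAKT1*, and the probe was assigned here by the list of changed genes. The gene was chosen by name and not by its values here. However, the study lists it among the genes that changed with genotype on these same arrays, so the genotype comparison below is not independent evidence. The arrays compared *OsERF106MZ*-overexpressing seedlings (OE) with Tainung 67, each with and without salinity stress, to find the genes that differ in shoots. OE carries *OsERF106MZ*, an ethylene-responsive factor gene, behind the constitutive 35S promoter in the Tainung 67 background, and the study made OE lines with and without a fused GFP, of which the labels name neither. Seedlings were 7 days old when they were moved to 150 mM NaCl or left at 0 mM NaCl for 24 h. The groups are OE with 150 mM NaCl, Tainung 67 with 150 mM NaCl, OE with 0 mM NaCl and Tainung 67 with 0 mM NaCl, with 3 arrays each.

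SRO proteins are a plant-specific family related to RCD1 of *Arabidopsis*, a nuclear protein that binds transcription factors and is needed for normal responses to reactive oxygen species. In rice, *OsSRO1c* is a target of the NAC transcription factor SNAC1 and is active in guard cells, where it promotes hydrogen peroxide accumulation and stomatal closure. Plants that overexpress it lose less water but tolerate oxidative stress poorly, with low catalase activity.

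The 12 arrays lay on 3 slides, and the slide bears on every genotype comparison. Replicates 1 and 3 of Tainung 67 were on slide 1 and those of OE on slide 2. Replicate 2 of all 4 groups was on slide 3, which was scanned in another session. Before normalization, slide 3 was brighter, with median spot signals of 582 to 814.5 intensity units per array, against 315.5 to 430.5 units on slides 1 and 2. On each array, 79.3% to 88.0% of probes were well above background. Across probes, the replicates 1 and 3 of any group correlated at r = 0.9925 to 0.996, and either of them with replicate 2 at 0.965 to 0.9826. The sources conflict on the independence of the 3 arrays in each group, so each n counts arrays and each p-value measures the spread between arrays, which may be technical. Shoot and root marker genes could not be placed on probes, and the tissue and the level of *OsERF106MZ* were not analysed here.

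The *OsSRO1c* probe was well above background on all 12 arrays, and its single spot was nowhere saturated or an outlier. The spot signals before normalization were 32786, 42310 and 31314 intensity units in replicates 1, 2 and 3 of OE with NaCl, and 4001, 49802 and 4211 units in those of Tainung 67 with NaCl. With 0 mM NaCl they were 1203, 1821.5 and 1486.5 units in OE, and 235, 1257 and 335.5 units in Tainung 67. Local background around the spot was between 39 and 53 units throughout. The spot was therefore 5 times as bright as its surroundings on the dimmest array, replicate 1 of untreated Tainung 67, and 1038 times on the brightest, replicate 2 of NaCl-treated Tainung 67.

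After background correction and quantile normalization, the log2 signal of *OsSRO1c* was 15.40, 14.74 and 15.38 in OE with NaCl, and 12.30, 14.85 and 12.29 in Tainung 67 with NaCl. It was 10.61, 10.38 and 11.10 in OE without NaCl, and 7.95, 9.31 and 8.27 in Tainung 67 without NaCl. All 6 NaCl-treated arrays lay above all 6 untreated ones. The OE arrays lay above those of Tainung 67 without NaCl, whereas with NaCl the groups overlapped, because replicate 2 of Tainung 67 read above replicate 2 of OE.

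**Figure D1:**
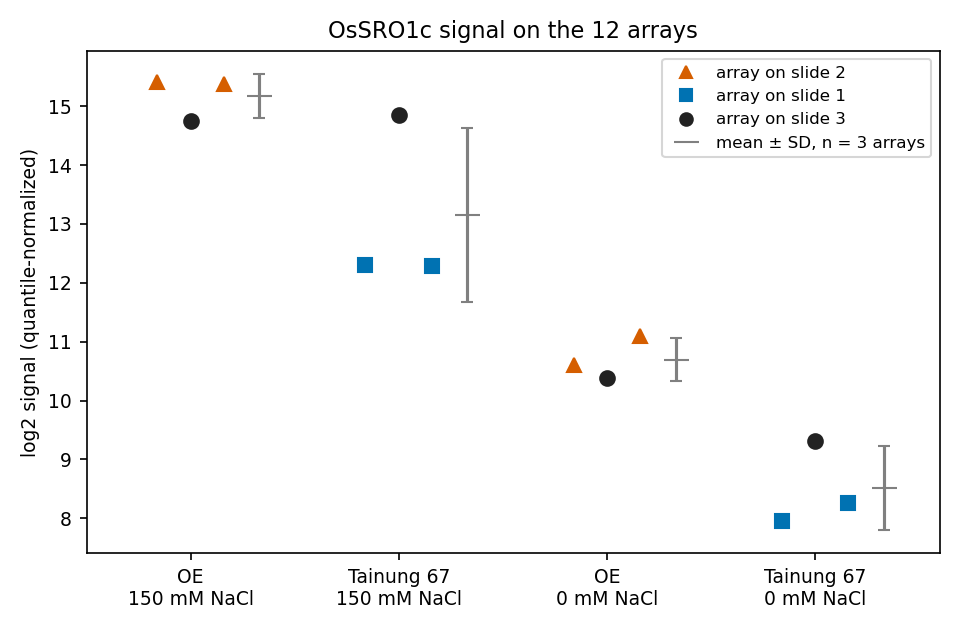
The log2 quantile-normalized signal of *OsSRO1c* (vertical axis) on each of the 12 arrays, by group (horizontal axis), with symbols for the slide and the mean ± SD of the 3 arrays beside each group. The NaCl-treated groups sit between 12.29 and 15.40 and the untreated groups between 7.95 and 11.10, and the slide 3 arrays of Tainung 67 sit above the slide 1 arrays.

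The mean log2 signals placed the groups in the order OE with NaCl at 15.18 ± 0.38, Tainung 67 with NaCl at 13.15 ± 1.48, OE without NaCl at 10.70 ± 0.36 and Tainung 67 without NaCl at 8.51 ± 0.71 (SD, n = 3 each). Of the 3 pairs of neighbours in this order, only the middle pair passed the test in limma, for which the Benjamini-Hochberg adjusted p had to be below 0.05 and the change above 2-fold. Untreated OE was lower than NaCl-treated Tainung 67, with a log2 fold change of -2.45 (SE 0.61, limma adjusted p = 0.0163), and their arrays did not overlap. Among all tested probes, 8.97% passed in that comparison and 36.8% had arrays that did not overlap. OE and Tainung 67 lay on different slides in replicates 1 and 3, and this log2 fold change was -4.08 with slide as a fixed block, -3.43 with slide as a random block and -1.44 without slide 3, each of which passed. The middle pair did not pass without replicate 1 of untreated OE (log2 fold change -2.41, adjusted p = 0.0532), and the log2 fold change was -1.60 without replicate 2 of NaCl-treated Tainung 67, still passing. The outer pairs, which are the genotype comparisons, missed the adjusted threshold, although their 95% intervals lay above 0.

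NaCl raised *OsSRO1c* strongly in both genotypes. In OE shoots the log2 fold change was 4.48 (SE 0.61, 95% interval 3.13 to 5.83, adjusted p = 0.000718, limma), a 22.3-fold increase. In Tainung 67 shoots it was 4.64 (SE 0.61, 95% interval 3.28 to 5.99, adjusted p = 0.000832), a 24.9-fold increase. Of all tested probes, 9.82% passed in OE and 8.93% in Tainung 67. Arrays with and without NaCl did not overlap in either genotype, a separation also seen for 44.5% of the probes in OE and 39.3% in Tainung 67. Few probes responded more strongly. By log2 fold change *OsSRO1c* ranked 66 from the top in OE and 68 in Tainung 67 among the 37144 probes. The upregulated probes had median log2 fold changes of 1.50 in OE (2296 probes) and 1.52 in Tainung 67 (1844 probes).

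The NaCl response held on every slide. Between arrays of the same slide and replicate number, NaCl-treated OE exceeded untreated OE by 4.79 and 4.29 on slide 2 (log2, replicates 1 and 3) and by 4.36 on slide 3. NaCl-treated Tainung 67 exceeded untreated Tainung 67 by 4.35 and 4.02 on slide 1 and by 5.54 on slide 3. All 6 of these differences were therefore increases, of 16.2- to 46.6-fold. In an exact two-sided permutation test over both genotypes, in which labels were exchanged only within a genotype (400 arrangements), the mean log2 difference of 4.56 gave p = 0.005, the smallest p that the design allows. Exchanging signs only within the 6 pairs of the same replicate number gave an exact permutation p = 0.0312, again the smallest possible. Both tests count arrays of the same slide as separate samples, and 3 arrays against 3 alone could not go below 0.1. In Tainung 67 the test per probe that the Methods name, without limma's shared estimate of the spread, did not pass (adjusted p = 0.0731).

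The increase in *OsSRO1c* with NaCl was of like size in OE and Tainung 67 on these arrays, but the interval of the difference is wide. The interaction, the log2 NaCl response of OE minus that of Tainung 67, was -0.16 (SE 0.87, 95% interval -2.07 to 1.76, adjusted p = 0.989). The interval spans a response in OE from 0.238 to 3.38 times that of Tainung 67, so the equality of the responses was not shown. For comparison, 0.0942% of the tested probes passed in the interaction. The sign of the difference turned to 0.69 without replicate 2 of NaCl-treated Tainung 67, and to 0.35 without slide 3 (adjusted p = 0.47). Among the 1286 probes upregulated by NaCl in both genotypes (3.46% of those tested), the median log2 fold changes were 1.87 in OE and 1.72 in Tainung 67. Only 31 of all tested probes responded more than *OsSRO1c* in both. The responses of *OsSRO1c* differed by 0.16 between the genotypes, against a median of 0.36 over the 1286 probes, of which 342 differed by less.

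**Figure D2:**
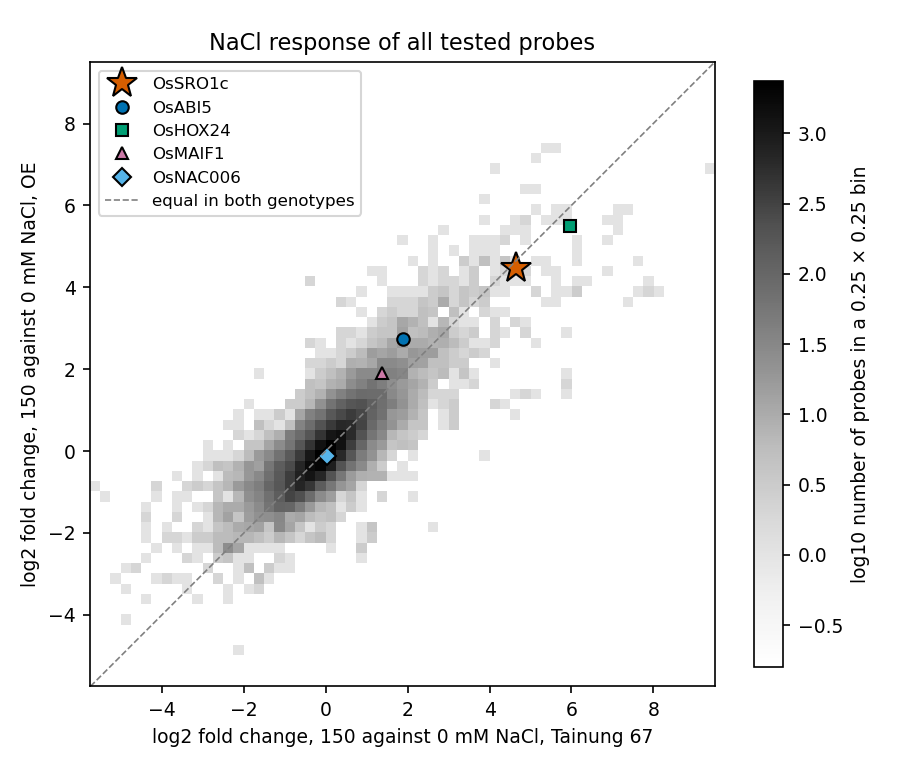
The log2 fold change of 150 against 0 mM NaCl in OE (vertical axis) and Tainung 67 (horizontal axis), with grey bins for the number of tested probes (log10 scale) and symbols for the named genes. *OsSRO1c*, at 4.48 and 4.64, lies close to the dashed line of equal responses and toward the upper right end of the cloud.

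*OsSRO1c* was higher in OE than in Tainung 67 on average at either NaCl level, by an amount that did not pass the test. With 150 mM NaCl the log2 fold change was 2.03 (SE 0.61, 95% interval 0.68 to 3.38, adjusted p = 0.0770), or 4.08-fold, and 3.35% of all tested probes passed. With 0 mM NaCl it was 2.19 (SE 0.61, 95% interval 0.84 to 3.54, adjusted p = 0.0507), or 4.56-fold, and 4.36% passed. It ranked 298 and 270 from the top by log2 fold change with and without NaCl, among 37144 probes. The OE and Tainung 67 arrays without NaCl did not overlap, as for 33.8% of all probes, while with NaCl they overlapped, unlike the 23.4% of probes whose arrays were separate. Replicates with the same number were taken as paired, and with the replicate number as a block the comparison without NaCl passed (2.19, adjusted p = 0.0429), with adjusted p-values between 0.000437 and 0.456 over all alternatives. In the exact two-sided permutation test over both NaCl levels, with labels exchanged within a level, the mean log2 difference of 2.11 gave p = 0.01 (400 arrangements, smallest possible p = 0.005). That test sets the pairing and the slide aside. OE was higher in 5 of the 6 pairs of the same replicate number and NaCl level. When signs were exchanged only within these pairs, the exact two-sided permutation p was 0.0625 (64 arrangements, smallest possible p = 0.0312), so that the call was lost. In replicates 1 and 3 the pairs set slide 2 against slide 1, so neither permutation test separates genotype from slide. Both also count arrays of the same slide as separate samples.

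The genotype difference was smaller within slide 3 than between slides 2 and 1. Slide 3 also holds replicate 2 of every group and was scanned apart, so slide, replicate number and scan cannot be told apart. Within slide 3, the only slide with both genotypes, OE minus Tainung 67 was -0.11 with NaCl (0.927-fold) and 1.07 without NaCl (2.10-fold), from a single array per group. Between slides 2 and 1, the difference was 3.10 with NaCl (8.57-fold) and 2.75 without NaCl (6.71-fold). On those slides genotype and slide cannot be told apart. A fit with slide as a fixed block therefore takes the mean genotype difference from slide 3 alone, and the NaCl responses from all slides. With slide as a fixed block, the log2 fold changes of OE against Tainung 67 were 0.40 with NaCl (adjusted p = 0.591) and 0.56 without NaCl (adjusted p = 0.456). As a random block, slide left 1.05 with NaCl (adjusted p = 0.273) and 1.21 without NaCl (adjusted p = 0.192). When slide 3 was left out, both comparisons passed, with adjusted p = 0.000312 with NaCl and 0.000437 without NaCl. The plot of the fits shows these values beside the NaCl responses, which a slide block cannot move, since each genotype has its treated and untreated arrays on the same slides.

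**Figure D3:**
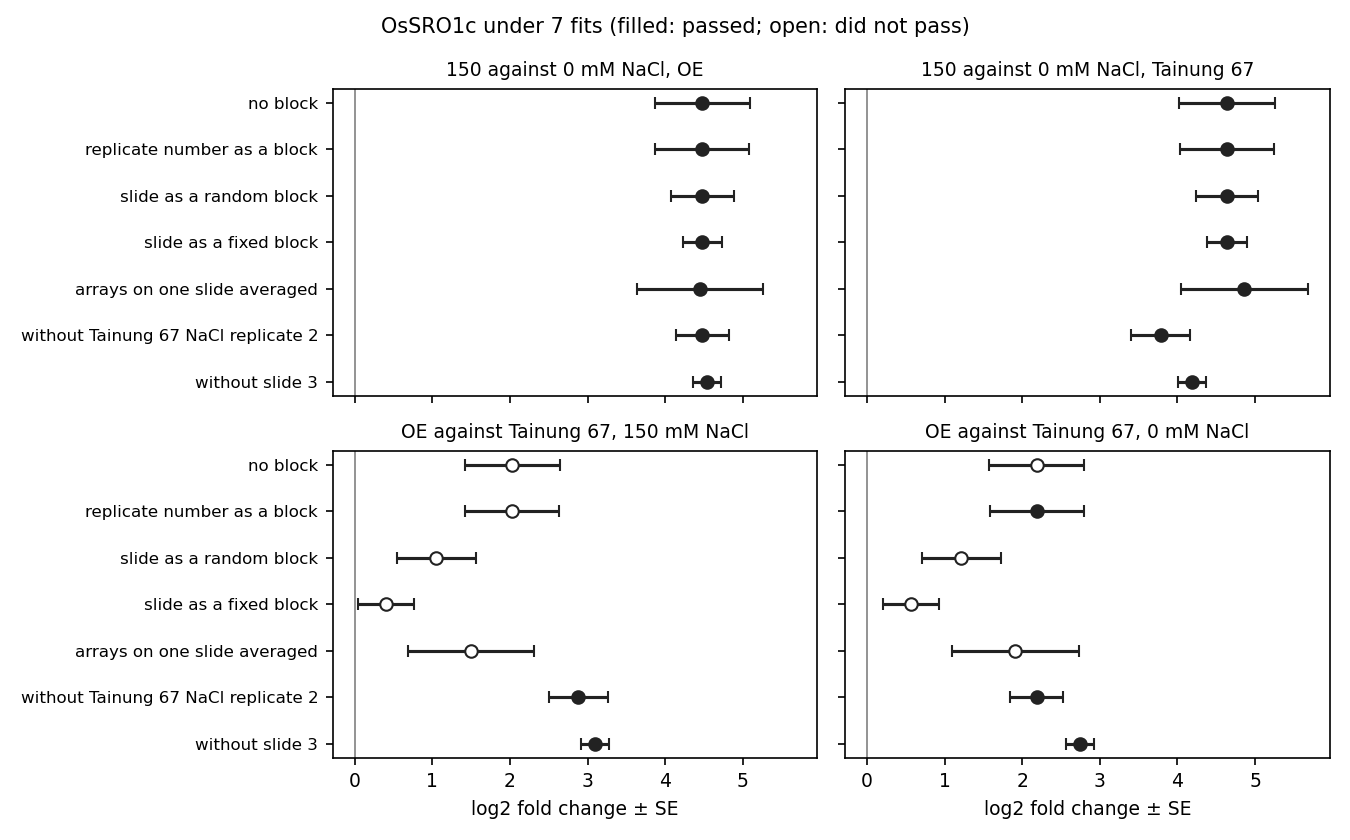
The log2 fold change of *OsSRO1c* ± SE (horizontal axes) in 4 comparisons (panels) under 7 fits (rows), with filled points where the comparison passed and open points where it did not. The NaCl responses lie between 3.79 and 4.86 under all 7 fits, whereas the genotype differences lie between 0.40 and 3.10.

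The array that stood farthest from its group was replicate 2 of NaCl-treated Tainung 67. It read 2.56 above the mean of replicates 1 and 3 on the log2 scale (5.88-fold), while those differed from each other by 0.01. A gap as large in either direction was found in that group for 373 probes, or 1.00% of the probes, whose median absolute gap was 0.39. Without this array, the genotype difference passed with NaCl (2.88, adjusted p = 0.00163) and without NaCl (2.19, adjusted p = 0.00369). Leaving out replicate 2 of untreated Tainung 67 also let the comparison without NaCl pass (2.59, adjusted p = 0.0413).

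Replicate 2 lay below the mean of replicates 1 and 3 in OE, by -0.65 with NaCl and -0.47 without NaCl, and above it in Tainung 67, by 2.56 with NaCl and 1.20 without NaCl. In untreated OE, replicates 1 and 3 differed from each other by as much, at -0.49, so replicate 2 did not stand apart there. The gap in untreated Tainung 67 was 2.30-fold, and a gap as large was found for 5.22% of the probes. In OE, gaps as large in either direction as those of *OsSRO1c* were found for 15.8% of the probes with NaCl and 29.5% without NaCl. Of 37085 probes, 143 others were as high in replicate 2 of both Tainung 67 groups, and 6 of these were also below 0 in both OE groups. What sets replicate 2 of Tainung 67 apart was not tested.

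**Figure D4:**
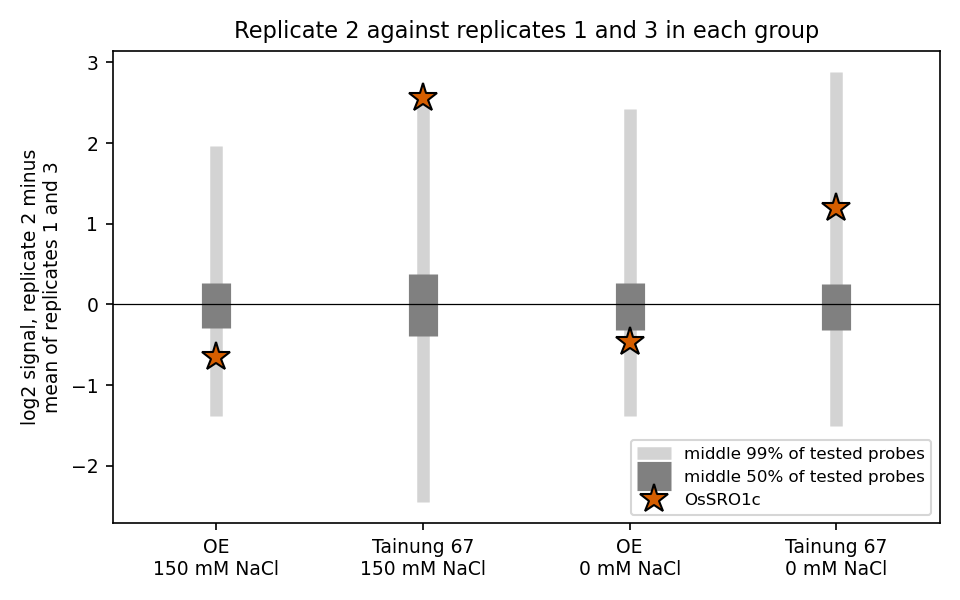
The log2 signal of replicate 2 minus the mean of replicates 1 and 3 (vertical axis) in each group (horizontal axis), with *OsSRO1c* as a star and dark and light bars for the middle 50% and 99% of tested probes. *OsSRO1c* sits at -0.65 and -0.47 in the OE groups and at 2.56 and 1.20 in the Tainung 67 groups with and without NaCl.

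Many probes followed the pattern of *OsSRO1c* over the 12 arrays. Of 37084 probes with a value on every array, 715 had a Pearson's r above 0.95 with it and 1927 above 0.9. Likeness is given as a description, since the probes share arrays and slides, and the NaCl response makes up most of the variation. The 10 most similar probes had r between 0.9913 and 0.9953, and all 10 were upregulated by NaCl in both genotypes, with log2 fold changes of 1.21 to 5.73 in OE and 1.14 to 6.79 in Tainung 67. Of all tested probes, 3.46% were upregulated by NaCl in both. In OE against Tainung 67, 2 of the 10 probes were upregulated with NaCl and 2 without NaCl, where 1.93% and 2.06% of all tested probes were. The choice by likeness to a probe with these differences favours such calls, and nothing is read from the counts. Like *OsSRO1c*, all 10 read higher in replicate 2 of NaCl-treated Tainung 67 than in replicates 1 and 3, by 0.85 to 2.84 on the log2 scale.

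The probe most like *OsSRO1c*, CUST_8555_Rice4x44kGene (r = 0.9953), has no locus in the tables used here. Its log2 signal was 14.84, 14.70 and 14.70 in OE with NaCl, and 11.97, 14.91 and 12.30 in Tainung 67 with NaCl. It was 10.39, 10.64 and 10.80 in OE without NaCl, and 7.85, 9.48 and 8.09 in Tainung 67 without NaCl. As for *OsSRO1c*, replicate 2 of Tainung 67 lay above the other replicates, and the genotype groups overlapped with NaCl and not without it. NaCl raised the probe by log2 fold changes of 4.14 in OE (adjusted p = 0.00152) and 4.59 in Tainung 67 (adjusted p = 0.00126).

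Among the probes paired with a rice locus, which are those that the study lists as changed on these arrays, the 3 most similar were LOC_Os02g54254 (r = 0.9935), LOC_Os01g53220 (0.9919) and LOC_Os01g63060 (0.9913). The next 7 loci were LOC_Os03g60560, LOC_Os05g05930, LOC_Os01g39020, LOC_Os03g17790, LOC_Os03g57640, LOC_Os02g26720 and LOC_Os02g28220, with r between 0.9872 and 0.9906. All 10 loci passed as upregulated by NaCl in both genotypes, with medians of 3.88 in OE and 4.04 in Tainung 67. In OE against Tainung 67, 4 of the 10 were upregulated with NaCl and 5 without NaCl. Of all 1161 loci compared, 17.8% were upregulated by NaCl in both genotypes, and 18.6% with NaCl and 17.9% without NaCl in OE against Tainung 67. The loci were listed by the study for their change and the 10 were chosen by likeness, so these counts describe the choice. LOC_Os02g54254, LOC_Os02g26720 and LOC_Os02g28220 were upregulated in OE under both conditions. For LOC_Os02g54254, the most similar of the 10 loci, the log2 fold changes were 1.63 with NaCl (adjusted p = 0.0480) and 1.95 without NaCl (adjusted p = 0.0200). The probe of LOC_Os02g54254 read 10.78, 10.62 and 10.81 in OE with NaCl and 8.22, 10.17 and 8.92 in Tainung 67 with NaCl (log2 signal). The genotypes did not overlap there, as for 23.4% of all probes, and their replicates 1 and 3 lay on different slides.

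**Figure D5:**
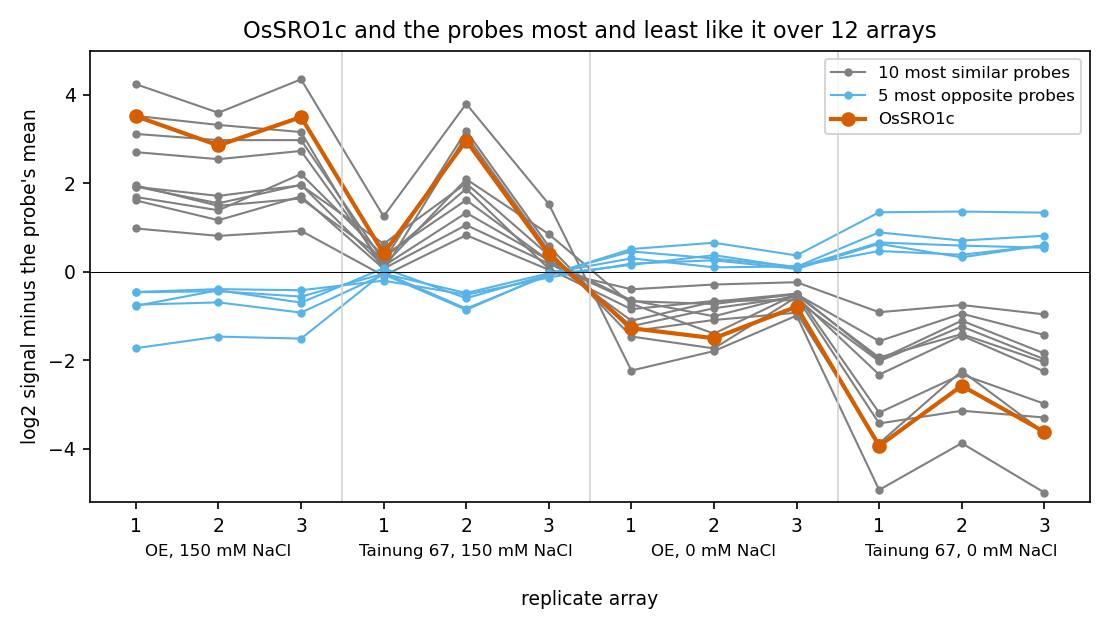
The log2 signal of each probe minus its own mean over the 12 arrays (vertical axis), by array within group (horizontal axis), for *OsSRO1c*, the 10 probes most like it and the 5 most opposite. *OsSRO1c* and the 10 similar probes read high together in replicate 2 of NaCl-treated Tainung 67, where the 5 opposite probes read low.

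The 5 probes with the most opposite pattern had r between -0.9909 and -0.9810. All of them averaged lower with NaCl, by log2 fold changes of -0.59 to -2.08 in OE and -0.67 to -1.66 in Tainung 67. The probe with the largest of these, CUST_33294_Rice4x44kGene, was downregulated in OE with NaCl against Tainung 67 with NaCl (log2 fold change -1.26, adjusted p = 0.00569). It was the only 1 of the 5 to pass in that comparison, where 3.35% of all tested probes passed in either direction. The fit had no slide block, and replicates 1 and 3 of the genotypes lay on different slides.

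The genes that the study names beside *OsSRO1c* shared its NaCl response in part. *OsHOX24*, a homeodomain-leucine zipper gene, had r = 0.9758 with *OsSRO1c* and rose with NaCl by 5.51 in OE and 5.97 in Tainung 67 (adjusted p = 0.000315 and 0.000290). The bZIP factor gene *OsABI5* had r = 0.9031 and rose with NaCl by 2.73 in OE and 1.89 in Tainung 67 (adjusted p = 0.00273 and 0.0198). In OE against Tainung 67, *OsABI5* passed as higher with NaCl (2.82, adjusted p = 0.00829) and without NaCl (1.98, adjusted p = 0.0323). That fit had no slide block, and replicates 1 and 3 of the genotypes lay on different slides. Within slide 3, *OsABI5* was higher in OE at both NaCl levels, but by less than in replicates 1 and 3. Genotype and slide are therefore not separated for *OsABI5* either, and its difference from *OsSRO1c* was not tested. The F-box gene *OsMAIF1* had r = 0.9407 and a log2 NaCl response of 1.90 in OE (adjusted p = 0.0143) and 1.36 in Tainung 67 (adjusted p = 0.0633). Its probe exceeded background clearly on 8 arrays only. Neither *OsHOX24* (1.48 with NaCl, adjusted p = 0.198, and 1.94 without NaCl, adjusted p = 0.0825) nor *OsMAIF1* (1.13, adjusted p = 0.194, and 0.59, adjusted p = 0.50) passed in OE against Tainung 67. *OsNAC006* had r = -0.4637, with log2 NaCl responses of -0.11 in OE and 0.03 in Tainung 67, of which neither passed. In the same fit without a slide block, *OsNAC006* was lower in OE than in Tainung 67 with NaCl (-1.25, adjusted p = 0.00311) and without NaCl (-1.11, adjusted p = 0.00453). The log2 gap of replicate 2 in NaCl-treated Tainung 67 was 2.38 for *OsHOX24*, 1.97 for *OsMAIF1*, 1.39 for *OsABI5* and -0.22 for *OsNAC006*, against 2.56 for *OsSRO1c*. These 4 genes were chosen by the study on these arrays and are no independent evidence of a direction. The study also measured them and *OsSRO1c* by quantitative PCR, on RNA from the same shoots. In its OE lines with and without GFP, it reported *OsNAC006* as lower under both conditions, and *OsSRO1c* and the other genes as higher. Those measurements were not analysed here.

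Few other genes of the pathways around *OsSRO1c* could be read, because loci were paired with probes only for genes the study lists as changed. None of the 5 loci of NAC and zinc finger factors, SNAC1 among them, and none of the 9 loci of catalases, ascorbate peroxidases and superoxide dismutases had such a pair. Of 17 loci for the response to abscisic acid and salt, 3 had one. All 3, *OsABI5*, *OsHOX24* and LOC_Os03g16170, were upregulated by NaCl in OE and in Tainung 67, as were 3.46% of all tested probes and 17.8% of the placed loci. They could be read because the study lists them as changed, so their count says nothing of the other loci. For LOC_Os03g16170 (r = 0.9445 with *OsSRO1c*) the log2 NaCl responses were 4.58 in OE and 3.75 in Tainung 67 (adjusted p = 0.000779 and 0.00299).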

How the data were processed

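Shoot RNA was labelled with Cy3 and hybridized to Agilent rice microarrays. The authors deposited the scanner output of Feature Extraction 10.7.1.1, with an intensity for each spot and its local background, and a table of normalized log2 values, which are processed signals shifted for each array and centred on the median of each probe. Here, median spot intensities were background-corrected (normexp, offset 0), 1417 control spots and all outlier spots were left out, and arrays were quantile-normalized and log2-transformed in limma 3.58.1 (R 4.3.3). A probe was tested if 3 or more arrays had it well above background (37144 probes), with lmFit and eBayes over the 4 groups, with p-values adjusted by Benjamini-Hochberg over all of them within a comparison. Groups and replicate numbers came from the titles of the arrays, although another label gives every untreated OE array the same replicate number. Deviations of same-numbered arrays from their group means correlated at 0.172 to 0.681 in every pair, and pairing by number was assumed. Arrays with different numbers were not compared, so these correlations cannot show that replicates 1 and 3 are paired by number. Slide 3 holds replicate 2 of every group, and number and slide cannot be told apart there. The genes named are the probes with the highest and lowest r, the genes that the study names with *OsSRO1c* and the listed loci with a probe. *OsSRO1c* and these lists were chosen with earlier results of these data known. Fits were tested on simulated data with independent noise and no slide effect, so that test does not bear on the slides. Columns of the authors' own fold changes were not used, and no sequence was analysed here.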

Additional observations from a re-analysis of the deposited data

How the results depend on the processing

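The NaCl response of *OsSRO1c* kept its direction under every alternative tried. It passed under all of them in OE and under all but the t-test per probe in Tainung 67 (4.64, adjusted p = 0.0731). With each array left out in turn, it was 4.32 to 4.70 in OE and 3.79 to 5.07 in Tainung 67, and it passed in all 12 fits. Although the single pair on slide 3 read -0.11 with NaCl, OE against Tainung 67 stayed above 0 under every alternative fit. It did not stay on one side of the threshold. Without NaCl it passed when testing was limited to probes exceeding background clearly on all 12 arrays (2.19, adjusted p = 0.0493), with the replicate number as a block (2.19, adjusted p = 0.0429) and without slide 3 (2.75, adjusted p = 0.000437), and with NaCl without slide 3 (3.10, adjusted p = 0.000312). With each array left out, it was 1.91 to 2.59 without NaCl, passing in 2 of 12 fits, and 1.60 to 2.88 with NaCl, passing in 1 of 12. Over all alternatives its adjusted p was 0.000437 to 0.456 without NaCl and 0.000312 to 0.678 with NaCl. In the exact permutation test of the genotype difference over both NaCl levels (2.11), keeping the pairs gave p = 0.0625 and lost the call. The replicate block changed no other call, and the cause of the changes was not tested.

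The interaction passed under no alternative, and was 0.35 without slide 3 (adjusted p = 0.470) and between -0.59 and 0.69 with each array left out. That t-test compares a pair of groups and was not run for it. Untreated OE against NaCl-treated Tainung 67, for which all alternatives were added after the data were seen, was -4.08 and -3.43 with slide as a fixed and a random block and -1.44 without slide 3. It did not pass with arrays of a slide averaged (-2.95, adjusted p = 0.0991) or by the t-test (-2.45, adjusted p = 0.182), and was -2.88 to -1.60 with each array left out. In the exact permutation tests, with alternatives likewise added later, the mean NaCl difference was 4.13 to 4.77 and the mean genotype difference 1.89 to 2.54 with each array left out. The 10 most similar probes were less stable. Of them, 7 were shared with the 10 from signals shifted to the 75th percentile, 7 with those from the deposited normalized values, 1 with those found without slide 3 and 0 with those by Spearman's rho. The number of probes that passed, over all alternatives, was 11 to 3787 for OE against Tainung 67 with NaCl (1244 as reported) and 177 to 3439 without NaCl (1618). It was 1020 to 5016 for the NaCl response in OE (3649) and 952 to 4015 in Tainung 67 (3318), and 1093 to 4725 for untreated OE against NaCl-treated Tainung 67 (3333). For the interaction it was at most 862 (35). The precision of every value is limited by the 3 arrays per group and the single spot of the probe.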
